A study of Homo sapiens with 6 samples.

Results

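The 10 genes described here are regulators of apoptosis of the BCL2 family: the pro-survival genes BCL2L1, BCL2L2 and MCL1, the pore-forming effectors BAX and BAK1, and the BH3-only genes BID, BAD, BCL2L11, BBC3 and PMAIP1. They were chosen as a list of symbols and matched by Ensembl identifier among the 58395 genes measured. All 10 were among the 15566 genes with enough counts to be tested. The RNA came from HCT116, an established line of human colorectal cancer cells, in 6 libraries: 3 replicates of cells carrying the non-target short hairpin (shControl) and 3 of cells in which another hairpin depletes STBD1 (shSTBD1). STBD1 is a glycogen-binding adaptor proposed for the autophagy of glycogen, and the comparison asks how its depletion alters the transcriptome. According to the methods, hairpins were delivered by lentivirus and infected cells were kept in a selection drug, so that both groups had gone through infection and selection and were otherwise cultured alike in DMEM with serum. Each group carried 1 hairpin in 1 cell line, so that an effect of the depletion and an effect of the hairpin cannot be told apart.

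Apoptosis through the mitochondria begins when BAX or BAK1 assembles in the outer membrane and lets cytochrome c escape into the cytosol. Pro-survival proteins such as BCL-XL, encoded by BCL2L1, hold the effectors in check, and BH3-only proteins bind the pro-survival proteins or activate the effectors directly. Colorectal cancer cells are known for relying on BCL-XL, and the balance within the family sets how easily such cells die.

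The deposited expected counts summed to between 17689097 and 21668274 per library. STBD1 was reduced but not lost, from 16.2, 15.7 and 14.4 CPM (counts scaled by TMM to a common library size) in shControl to 11.6, 9.06 and 9.18 in shSTBD1, a log2 fold change of -0.64 (SE 0.098, edgeR adjusted p = 2.9e-04). HCT116 is an epithelial line, and all 7 epithelial markers examined were expressed. At an edgeR adjusted p under 0.05, 6 of the 7 were higher in shSTBD1, among them KRT19 (log2 fold change 0.28) and CDH1 (0.29), and 0 were lower. Of all tested genes 8.22% were higher and 7.54% lower. The summed level of the 7 markers was 3034 to 3053 TPM (the share of transcripts, corrected for length) in shControl and 3432 to 3562 in shSTBD1, and the part of this difference in the results on the BCL2 family was not tested. Of 10 markers of fibroblasts, blood, endothelium and liver, only COL1A1 had enough counts to be tested, and PTPRC, CD3E and HBB were at 0 in all 6 libraries. In RNA from whole cultures, fewer cells of a kind and less RNA per cell cannot be told apart.

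The promoters of 3 genes whose counts differed between the groups are shown, BAX and BBC3 for the E-boxes they hold and BCL2L1 as the gene that fell most, with 250 bases before and 50 after the start as RefSeq gives it on GRCh38.p14. Capitals mark CACGTG, the E-box bound by MYC-type factors, which reads the same on both strands.
BAX, chr19:48954625-48954924, plus strand: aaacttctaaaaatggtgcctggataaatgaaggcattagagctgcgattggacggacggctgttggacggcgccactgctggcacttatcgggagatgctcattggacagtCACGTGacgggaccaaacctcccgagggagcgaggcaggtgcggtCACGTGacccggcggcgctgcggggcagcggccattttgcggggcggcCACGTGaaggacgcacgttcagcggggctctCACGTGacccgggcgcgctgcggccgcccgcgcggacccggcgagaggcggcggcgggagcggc
BBC3, chr19:47232618-47232917, minus strand: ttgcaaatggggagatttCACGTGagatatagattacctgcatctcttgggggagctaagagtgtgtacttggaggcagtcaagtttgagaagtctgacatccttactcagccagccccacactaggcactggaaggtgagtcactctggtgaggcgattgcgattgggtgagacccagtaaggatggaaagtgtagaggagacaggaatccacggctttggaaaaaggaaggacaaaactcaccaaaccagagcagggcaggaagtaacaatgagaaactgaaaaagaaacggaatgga
BCL2L1, chr20:31723914-31724213, minus strand: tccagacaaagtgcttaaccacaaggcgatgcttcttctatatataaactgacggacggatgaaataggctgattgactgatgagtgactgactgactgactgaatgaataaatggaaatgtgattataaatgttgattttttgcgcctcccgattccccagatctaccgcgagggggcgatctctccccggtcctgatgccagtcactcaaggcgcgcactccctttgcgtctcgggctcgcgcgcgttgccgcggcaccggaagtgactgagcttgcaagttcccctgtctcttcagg

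The BAX window held 4 copies of CACGTG and the BBC3 window 1, and both were shown because they hold it. Windows were given for 8 of the 10 genes, and 3 of these had CACGTG in a window, BID being the other. Of 35116 promoter windows of the same length, 7.26% had at least 1 copy. A gene can have several windows, so the count of genes and the share of windows are not alike. The forkhead letters GTAAACA, on either strand, were found in the window of BCL2L11, a gene known as a target of FOXO factors, and in 3.42% of all windows. The letters ACGTCA, part of the cyclic AMP response element, were found in BAD and PMAIP1 and in 7.98% of all windows. None of these 3 motifs was found in the window of BAK1, which also rose, or in either BCL2L1 window. MCL1 and BCL2L2 were not among the windows. These matches describe the letters in the windows, not binding.

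A hairpin can also lower other transcripts through short matches in their 3' UTR. The 7 bases that pair with the seed of each guide, TGTCACG for shControl and GATTTCT for shSTBD1, were therefore sought in the 3' UTRs of the family. For shControl alone, GTGTCAC, which overlaps that site but is not the seed match, was sought as well. Positions are again on GRCh38, with the site in capitals.
PMAIP1, chr18:59903277-59903303, plus strand: actcagtgttGATTTCTtcggtcacta
BID, chr22:17734329-17734355, minus strand: acggactcatGATTTCTtcttaccaga

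These were the 2 of 10 genes with the shSTBD1 site GATTTCT, which 16.9% of 19229 canonical 3' UTRs hold, and neither gene passed the test. The shControl letters GTGTCAC and TGTCACG were in 0 of 10, against 8.62% and 2.64% of all 3' UTRs. None of the 3 genes of the family that fell in shSTBD1 carried the shSTBD1 site. Among the lower genes named further on, CASP2 and CFLAR carried 2 copies each, DYNLL2 carried 1, and RIPK1 and NFKB1 carried 0. The 3' UTRs of CASP2, CFLAR and DYNLL2 have 2625, 12714 and 6263 bases, those of RIPK1 and NFKB1 1848 and 708. The share over all 3' UTRs was not matched for length. BNIP3L, named as higher, also carried 1. Of the shControl letters, GTGTCAC was in AKT1 and BIRC2, which were higher, and in DYNLL2, which was lower. TGTCACG was in BIRC5, which was higher. The part of such sites in the differences was not tested.

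In shSTBD1 cells the counts of the 3 listed pro-survival genes were lower. Those of several of the 7 listed death-promoting genes were higher, each by a small step. At an adjusted p under 0.05, 6 of the 10 genes differed, against 15.8% of all tested genes. The genes were chosen with earlier results of these data known, so such shares describe the family and do not test it. BAX, BAK1 and BBC3 were higher, 3 of 10 against 8.22% of all genes, and BCL2L1, BCL2L2 and MCL1 were lower, 3 of 10 against 7.54%. Among the 8775 genes with a mean CPM at or above that of BBC3, the lowest of the family, 23.4% were called. The libraries of the groups did not overlap in 8 of the 10 genes, against 33.6% of all genes. The absolute log2 fold changes of the 6 genes ran from 0.16 to 0.34, where the median of all called genes was 0.22. The median log2 fold change was -0.18 over the 3 pro-survival genes and 0.15 over the 7 others, against 0.0023 over all tested genes. Leaving out a library lowered the 6 calls to 2 without shSTBD1 replicate 3 and to 3 without shControl replicate 2 or shSTBD1 replicate 1, and DESeq2 called 3. The direction of all 6 calls was kept in each of 15 alternative analyses, but BCL2L1 and MCL1 were the only ones that passed in every count-based analysis. In limma on log2 TPM 0 of 10 passed. There 4 of the 10 had an unadjusted p under 0.05, as did 2617 (1 added to TPM) and 2527 (0.1 added) of the 15566 genes.

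**Figure D1:**
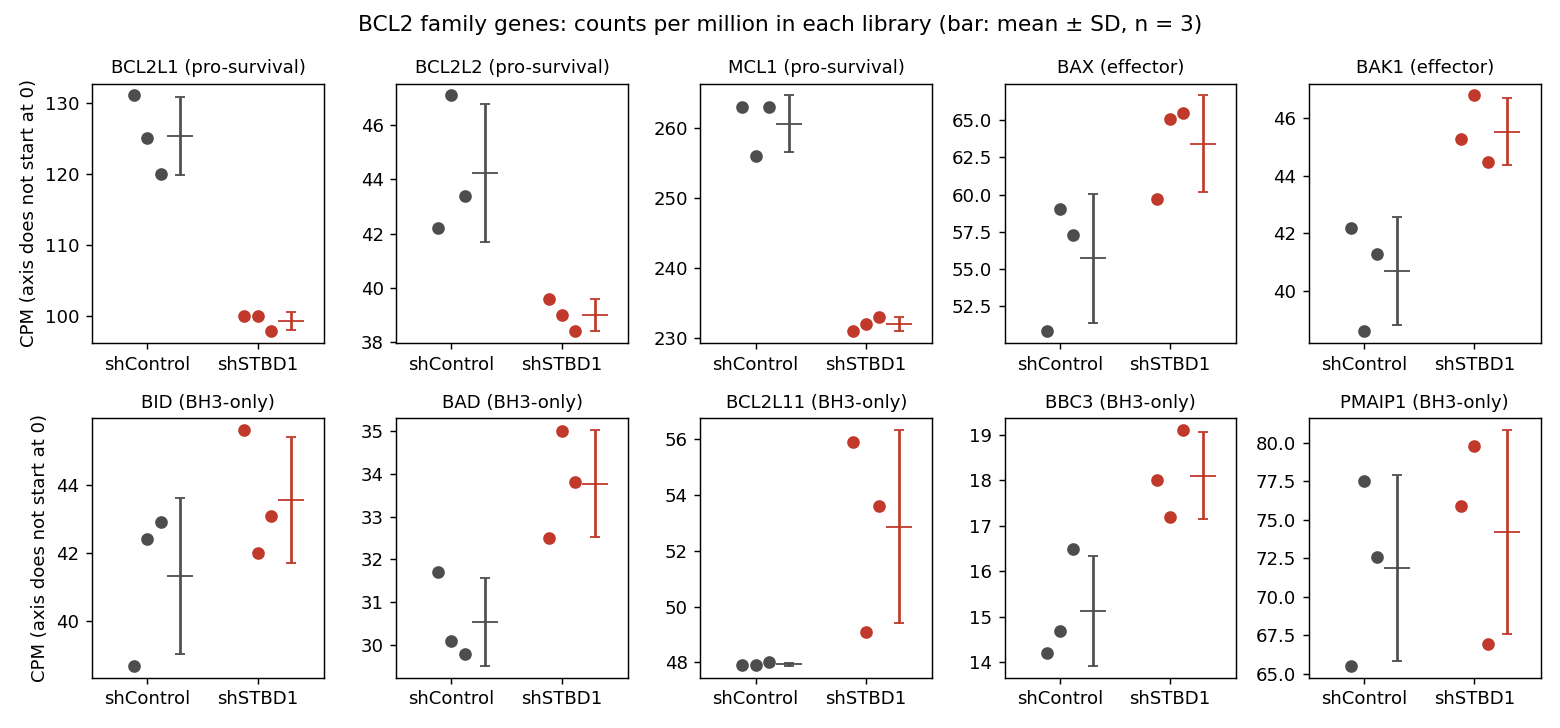
Counts scaled to a common library size (CPM, y axis, which does not start at 0) of the 10 genes in each of the 3 shControl and 3 shSTBD1 libraries, with the mean ± SD of the 3 beside the points. The 3 pro-survival genes lie lower in every shSTBD1 library, and only BID and PMAIP1 overlap between the groups.

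BCL2L1, which encodes BCL-XL, fell most. The gene (ENSG00000171552) lies at chr20:31664452-31723989 on the minus strand of GRCh38, as annotated in GENCODE release 44, whose gene positions are used throughout. It had 131, 125 and 120 CPM in shControl and 100, 99.9 and 97.8 in shSTBD1. The shSTBD1 libraries were close together and all lay below the lowest shControl library. The mean went from 125 ± 5.39 to 99.3 ± 1.3 (SD, n = 3 each). In the edgeR fit BCL2L1 fell by 20.7%, a log2 fold change of -0.34 (95% interval -0.41 to -0.26, edgeR adjusted p = 1.1e-05), the 152nd smallest p of all genes. Corrected for transcript length the decrease was still seen, from 82.30, 83.79 and 78.98 TPM to 69.47, 66.69 and 63.45, again without overlap. Over the 15 alternatives the log2 fold change ran from -0.36 to -0.29 and 13 passed, with adjusted p up to 0.13 in limma on TPM. The long non-coding RNA ABALON shares 1735 exon bases with BCL2L1 on the opposite strand and had 75.4 to 142 counts, against 1831 to 2609 for BCL2L1.

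MCL1 (ENSG00000143384, chr1:150560895-150579738, minus strand), a short-lived pro-survival protein that binds BAK1, had the highest counts of the family. Its level was 263, 256 and 263 CPM in shControl and 231, 232 and 233 in shSTBD1. The gap between the groups was wide beside the spread within them. In the edgeR fit MCL1 fell by 10.9%, a log2 fold change of -0.17 (95% interval -0.23 to -0.10, edgeR adjusted p = 0.0012). In TPM it had 84.90, 87.38 and 86.03 in shControl and 75.36, 72.80 and 76.47 in shSTBD1, also apart. All 6 analyses that left out a library called it, and it missed the threshold only in limma on TPM, with adjusted p of 0.16 and 0.18.

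BCL2L2 (ENSG00000129473, chr14:23298790-23311751, plus strand) encodes BCL-w, a relative of BCL-XL. It had 42.2, 47.1 and 43.4 CPM in shControl and 39.6, 39 and 38.4 in shSTBD1, a log2 fold change of -0.18 (SE 0.052, edgeR adjusted p = 0.025). The groups did not overlap, but the shControl libraries were spread and the call was less stable. It was lost without shControl replicate 2 (adjusted p = 0.12) and without any of the shSTBD1 libraries (0.057, 0.085 and 0.094). Corrected for transcript length the groups overlapped, at 16.45, 17.73 and 17.44 TPM in shControl and 15.04, 16.37 and 16.69 in shSTBD1, and with offsets for effective length the log2 fold change was -0.09 (edgeR adjusted p = 0.51). The read-through gene BCL2L2-PABPN1 shares 815 exon bases with BCL2L2 on the same strand, and its own estimate was uncertain, with a posterior standard deviation of up to 22% of the count and levels of 6.65, 15.4 and 11.5 CPM in shControl and 13.7, 13 and 11.6 in shSTBD1. Summed over both genes, the levels were 48.8, 62.5 and 54.9 CPM in shControl and 53.3, 52 and 50.1 in shSTBD1, which overlap.

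BAX, which moves from the cytosol to the mitochondrial membrane when activated, lies at chr19:48954815-48961798 on the plus strand (ENSG00000087088). Its counts rose from 50.8, 59 and 57.3 CPM in shControl to 59.7, 65.1 and 65.5 in shSTBD1, a log2 fold change of 0.19 (SE 0.055, edgeR adjusted p = 0.027). The groups were separated by less than 1 CPM, between shControl replicate 2 and shSTBD1 replicate 1. On the TPM scale no such difference was seen. BAX had 96.06, 129.20 and 100.92 TPM in shControl and 106.98, 109.85 and 109.41 in shSTBD1, a mean of 109 in each group, and the log2 fold change with offsets for effective length was 0.014 (edgeR adjusted p = 0.95). The mean transcript length that RSEM estimated for BAX was 862, 808 and 931 bases in shControl and 916, 941 and 948 in shSTBD1, which overlap. The call was also lost without shControl replicate 1 and without shSTBD1 replicate 2 or 3 (adjusted p = 0.076, 0.12 and 0.12).

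BAK1 (ENSG00000030110, chr6:33572547-33580293, minus strand), the effector that resides in the outer membrane, rose from 42.2, 38.6 and 41.3 CPM to 45.3, 46.8 and 44.5. The groups did not overlap, and the log2 fold change was 0.16 (SE 0.05, edgeR adjusted p = 0.034). Here the estimated transcript length was the same in all libraries (2135 to 2137 bases), and in TPM the groups also lay apart, at 25.23, 24.22 and 25.55 in shControl and 27.78, 28.16 and 26.85 in shSTBD1. The adjusted p was near the threshold, and 6 of 15 alternatives called the gene. Of the analyses that left out a library, only that without shControl replicate 1 called it, and the others gave adjusted p of 0.062 to 0.14.

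BBC3 (ENSG00000105327, chr19:47220822-47232766, minus strand) encodes PUMA, a BH3-only protein that binds the pro-survival members. It was the least abundant of the 10 genes, with 273 to 378 counts per library, and had the largest increase. Its level was 14.2, 14.7 and 16.5 CPM in shControl and 18, 17.2 and 19.1 in shSTBD1, a log2 fold change of 0.26 (SE 0.077, edgeR adjusted p = 0.029). The lowest shSTBD1 library lay above the highest shControl library, and in TPM likewise, at 11.88, 14.11 and 14.46 against 15.78, 15.38 and 15.97. Of the 15 alternatives 7 called it, and the call was lost without shControl replicate 1 or 2 (adjusted p = 0.075 and 0.081) and without shSTBD1 replicate 1 or 3 (0.08 and 0.12).

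The other 4 BH3-only genes did not pass the test. BAD (ENSG00000002330, chr11:64269830-64284704, minus strand), which is kept inactive by phosphorylation through survival kinases, had 31.7, 30.1 and 29.8 CPM in shControl and 32.5, 35 and 33.8 in shSTBD1. All 3 shSTBD1 values were above the shControl values, with a log2 fold change of 0.15 (95% interval 0.033 to 0.26, edgeR adjusted p = 0.075), and the gene passed without shControl replicate 1 (0.047). GPR137 on the opposite strand shares 404 of the 1708 exon bases of BAD, with 146 to 246 counts against 527 to 762 for BAD.

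BCL2L11 (ENSG00000153094, chr2:111119378-111168444, plus strand) encodes BIM, which binds all pro-survival members. Its counts were nearly equal in shControl, at 47.9, 47.9 and 48 CPM, and higher but more scattered in shSTBD1, at 55.9, 49.1 and 53.6. The log2 fold change was 0.14 (95% interval 0.032 to 0.25, edgeR adjusted p = 0.073), and it passed at 0.03 without shSTBD1 replicate 2, the lowest of the 3. In TPM the level was not stable between replicates, with 26.60, 12.69 and 39.58 in shControl and 17.87, 22.85 and 13.96 in shSTBD1. The transcript length estimated for it ran from 1643 to 4694 bases, by far the widest range of the 10 genes at a ratio of 2.86, and the direction turned to -0.48 with offsets for effective length. BCL2L11 was the gene with most transcripts in the annotation, 25. The long non-coding RNA MIR4435-2HG shares 727 exon bases with BCL2L11 on the opposite strand. It had 232 to 304 counts, against 850 to 1068 for BCL2L11.

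BID and PMAIP1 overlapped between the groups. BID (ENSG00000015475, chr22:17734138-17774770, minus strand), which links death receptors to mitochondria once cut by caspase-8, had 38.7, 42.4 and 42.9 CPM in shControl and 45.6, 42 and 43.1 in shSTBD1, with a log2 fold change of 0.075 (95% interval -0.038 to 0.19, edgeR adjusted p = 0.38). PMAIP1 (ENSG00000141682, chr18:59899996-59904305, plus strand) encodes NOXA, which targets MCL1 for destruction. It had 65.5, 77.5 and 72.6 CPM in shControl and 75.9, 79.8 and 66.9 in shSTBD1, with a log2 fold change of 0.046 (95% interval -0.088 to 0.18, edgeR adjusted p = 0.68). Both intervals hold a change as large as that of BAK1, so a difference of that size was neither called nor excluded. For PMAIP1 the direction depended on which library was left out.

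**Figure D2:**
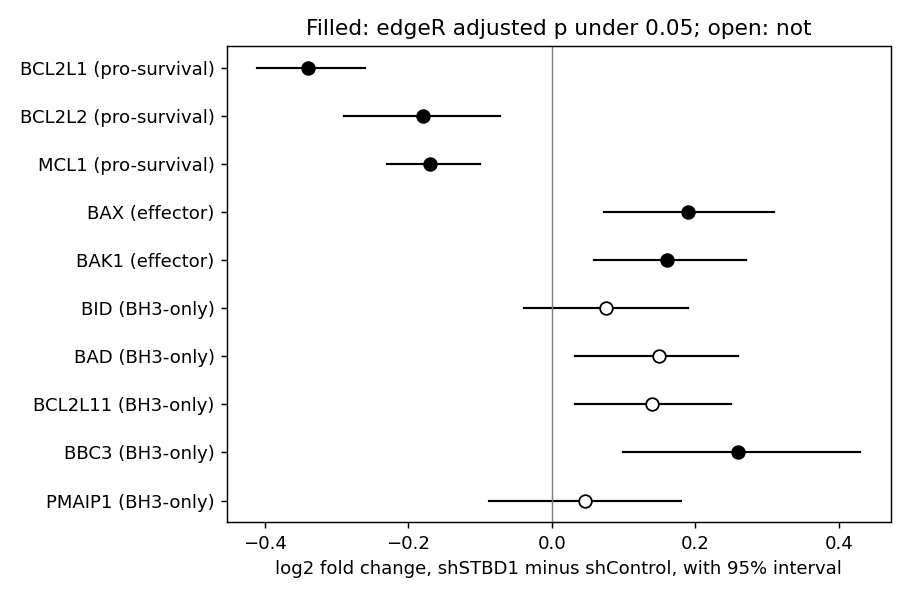
Log2 fold change of each gene, shSTBD1 minus shControl (x axis), with its 95% interval from edgeR; filled points have an adjusted p under 0.05. The 3 pro-survival genes lie to the left of 0 (-0.34, -0.18 and -0.17) and the 7 effector and BH3-only genes to the right (0.046 to 0.26), of which 3 are filled.

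Counts were also added within a role. The pro-survival genes summed to 436, 428 and 426 CPM in shControl and 371, 371 and 369 in shSTBD1. The effectors summed to 93, 97.6 and 98.6 CPM in shControl and 105, 112 and 110 in shSTBD1. The BH3-only genes summed to 198, 213 and 210 CPM in shControl and 228, 223 and 216 in shSTBD1. No sum overlapped between the groups on this scale, but without BCL2L11 the BH3-only sum did. In TPM only the pro-survival sum stayed apart, at 184, 189 and 182 in shControl and 160, 156 and 157 in shSTBD1. The effector sums, 121, 153 and 126 TPM in shControl and 135, 138 and 136 in shSTBD1, overlapped through BAX. The ratio of pro-survival to effector transcripts in TPM was 1.51, 1.23 and 1.44 in shControl and 1.19, 1.13 and 1.15 in shSTBD1. BCL2L1 per BAK1 had a wider gap, with 3.26, 3.46 and 3.09 in shControl and 2.5, 2.37 and 2.36 in shSTBD1, whereas BCL2L1 per BAX touched at 0.649 in both groups. These ratios restate the values of the genes in them and were given no test.

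Per transcript length, the level of the 10 genes spanned from 13.5 TPM for BBC3 to 109 TPM for BAX in shControl. BAX was followed by MCL1 (86.1), BCL2L1 (81.7), BID (69), BAD (56.9), PMAIP1 (50.2), BCL2L11 (26.3), BAK1 (25) and BCL2L2 (17.2). Of these neighbours BCL2L1 and BID, BID and BAD, and BCL2L11 and BAK1 overlapped between libraries. In shSTBD1 the order was BAX (109 TPM), BID (78.1), MCL1 (74.9), BCL2L1 (66.5), BAD (60.2), PMAIP1 (51), BAK1 (27.6), BCL2L11 (18.2), BCL2L2 (16) and BBC3 (15.7), where BID and MCL1, BCL2L11 and BCL2L2, and BCL2L2 and BBC3 overlapped. By its mean, BID stood above MCL1 and BCL2L1 in shSTBD1 and below both in shControl. Its own levels, 58.38, 68.30 and 80.32 TPM in shControl and 81.94, 77.04 and 75.41 in shSTBD1, overlapped. BCL2 itself was nearly silent in these cells, at 0.86 TPM in shControl.

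**Figure D3:**
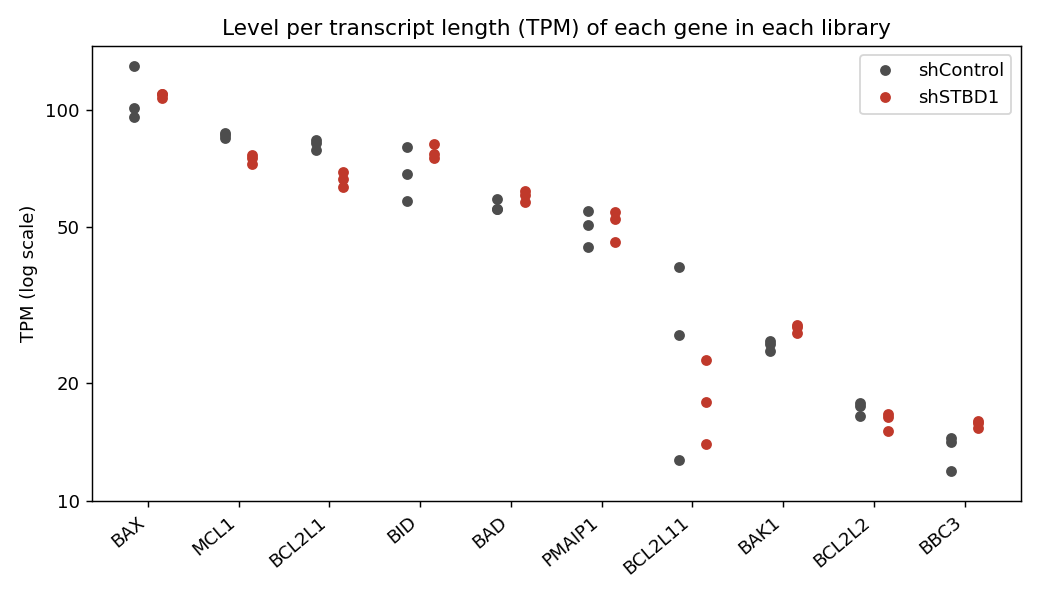
TPM of the 10 genes in each library (y axis, log scale), ordered by their mean in shControl, with shControl in grey and shSTBD1 in red. MCL1 and BCL2L1 are lower in all 3 shSTBD1 libraries, BAX has the same mean of 109 in both groups, and BCL2L11 scatters from 12.69 to 39.58 within shControl.

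Because TPM divides by the transcript length that RSEM estimates in each library, these lengths were compared as well. Only BCL2L1 had lengths without overlap, 2044, 2020 and 2021 bases in shControl and 1920, 1953 and 2006 in shSTBD1, a mean difference of -69.1 bases. The exact permutation test over libraries, two-sided, gave p = 0.1, the smallest that 3 against 3 allow. Adjusted over the 10 genes by Benjamini-Hochberg, the p of this permutation test was 0.5. This was 1 of 10 genes, against 11.1% of the tested genes whose length varies.

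**Figure D4:**
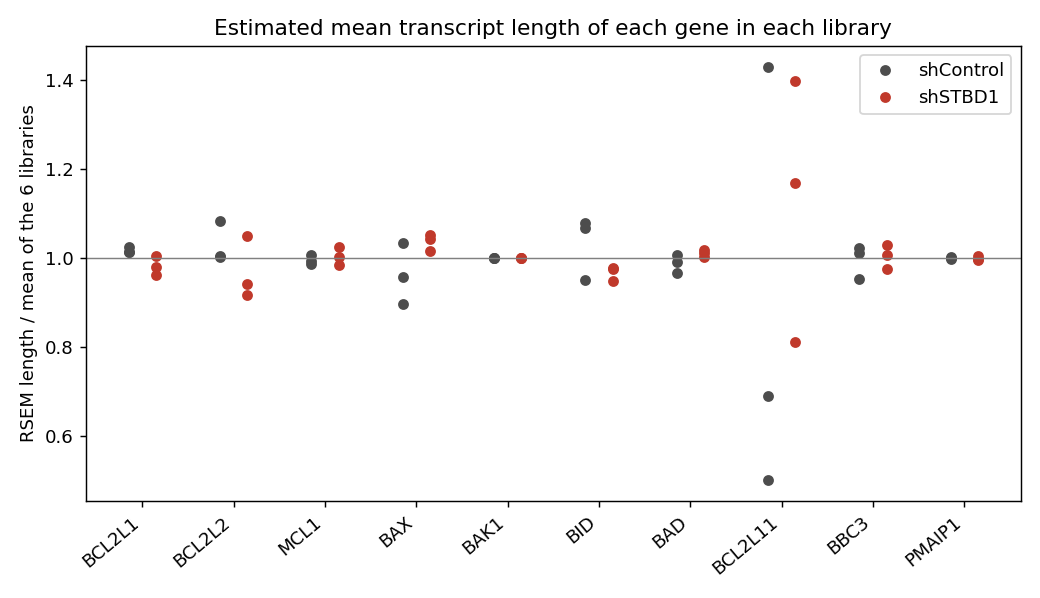
Mean transcript length that RSEM estimated for each gene in each library, divided by the mean of the 6 libraries (y axis), with shControl in grey and shSTBD1 in red. BCL2L11 varies most within both groups, BAK1 and PMAIP1 hardly vary, and BCL2L1 is shorter in all 3 shSTBD1 libraries.

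Other genes around the family moved in both directions, and the counts of each list stand beside the 15.8% of all tested genes called, or the 23.4% of those at or above the level of BBC3. Of 13 further BCL2 relatives, 10 were tested, and 4 were higher, 0 lower and 6 not called, with a median log2 fold change of 0.16. Those that rose were BCL2L12 (0.23, edgeR adjusted p = 0.0024), BCL2L13 (0.16, 0.026) and the mitophagy receptors BNIP3 (0.20, 0.006) and BNIP3L (0.17, 0.017). Not called were the pro-survival gene BCL2 (0.26, 0.33), BOK, a relative of BAX and BAK1 (-0.019, 0.86), and BCL2L15 (-0.11, 0.88). Nor were the BH3-only genes BIK (0.26, 0.076), HRK (-0.012, 0.97) and BMF (-0.10, 0.78). The split by role thus describes the 10 listed genes and was not seen in all relatives. Downstream of the pore, 2 of 16 genes of mitochondrial release, apoptosome and caspases were higher and 1 was lower, a share near that of all genes, with a median of 0.014. DFFA, the inhibitor of the caspase-activated nuclease, rose by 0.32 (adjusted p = 6.5e-06) and the channel gene VDAC3 by 0.12 (0.035), while CASP2, an initiator caspase, had a log2 fold change of -0.20 (0.0047). Cytochrome c (CYCS), APAF1 and CASP9 did not pass. Of 6 inhibitors of apoptosis, 5 were tested and 2 were higher, BIRC2 (0.26, adjusted p = 0.0031) and BIRC5, which encodes survivin (0.12, 0.038).

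Of 11 genes of death receptors and their complex, 2 were higher and 2 lower. CASP10, an initiator caspase, rose by 0.68 (edgeR adjusted p = 0.0034) from a low level of 1.15 TPM, and the adaptor TRADD by 0.30 (0.022). RIPK1, the receptor-bound kinase, had a log2 fold change of -0.23 (0.0058), and CFLAR, which encodes the caspase-8 inhibitor FLIP, one of -0.24 (0.017). Of 15 regulators that bind, modify or turn over the family, 4 were higher and 3 lower. The survival kinases PIM1 and AKT1, both of which phosphorylate BAD, rose by 0.59 (adjusted p = 2.4e-06) and 0.22 (3.0e-04), FBXW7, part of a ubiquitin ligase for MCL1, rose by 0.20 (0.018), and DYNLL2, a dynein light chain that binds BMF, had a log2 fold change of -0.23 (6.1e-04). Of 13 transcription factors that act on genes of the family, 12 were tested, with 2 higher and 2 lower. E2F1 (0.27, 0.0089) and MYC (0.12, 0.022) were higher, and NFKB1 (-0.21, 0.0029) was among the lower. The genes named here as higher or lower kept their direction in all 15 alternatives, but BIRC5, VDAC3 and TRADD were called in 7 each. The medians of the last 3 lists were 0.0023, -0.023 and 0.01, close to the 0.0023 of all tested genes.

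**Figure D5:**
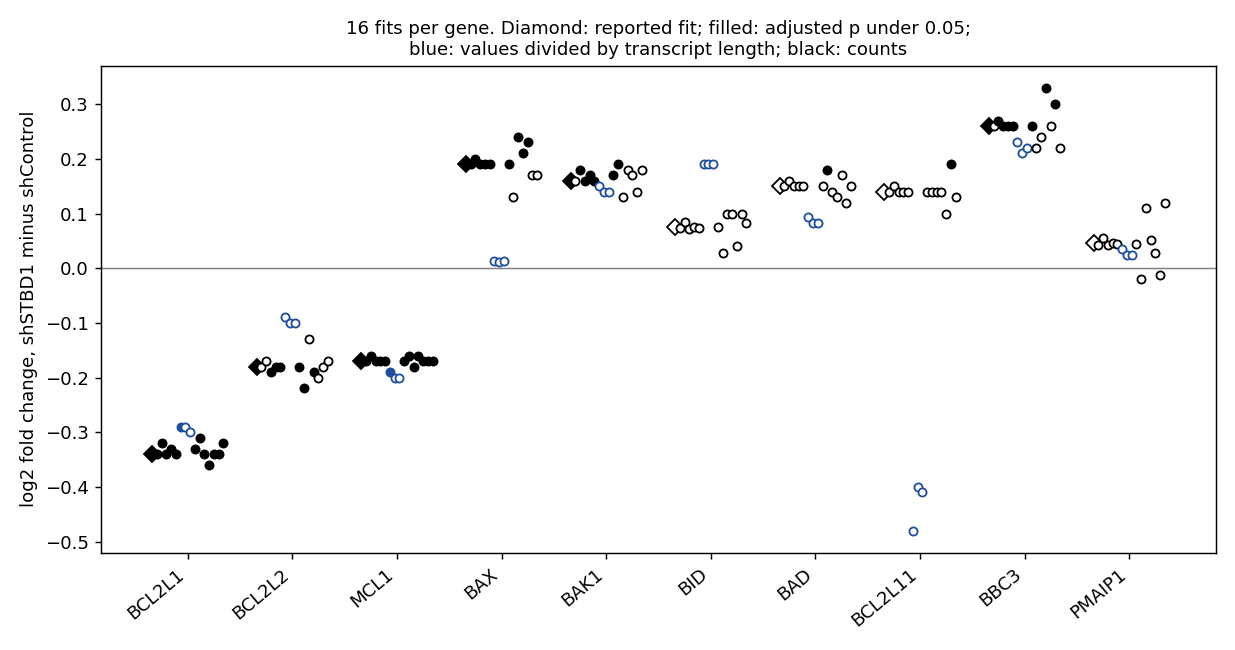
Log2 fold change of each gene (y axis) in 16 fits: the reported edgeR fit (diamond) and 15 alternatives (circles), filled where the adjusted p is under 0.05 and blue where values were divided by transcript length. BCL2L1 and MCL1 stay below 0 and filled in all count-based fits, BAX drops to 0.012 to 0.014 in the blue fits, and BCL2L11 turns to between -0.48 and -0.40 there.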

How the data were processed

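RNA from 3 shControl and 3 shSTBD1 replicates of HCT116, described in the methods as biological replicates, was sequenced as 1 library each; groups and numbers come from the labels. The authors discarded low-quality reads, used STAR 2.7.1a for alignment to Hg38 (gene models of Ensembl release 93), and quantified genes with RSEM 1.3.1. For each gene they deposited the expected count (not normalized), the TPM, the estimated length and a posterior standard deviation of the count. Whether counting used strand is not given in the sources used here, so reads of overlapping antisense genes may not be separable. No column of other samples was present (0).

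Expected counts were rounded, filtered with filterByExpr, scaled by TMM and tested with edgeR 4.0.16 (R 4.3.3), by the quasi-likelihood F-test with Benjamini-Hochberg adjustment over 15566 genes. Genes with an adjusted p under 0.05 were called. Precision is limited by the 3 replicates and, for low genes, by counts. Symbols, positions and 3' UTRs were matched through GENCODE release 44 on GRCh38, and promoters came from RefSeq. Of the scripts, only the edgeR fit without offsets or block and the DESeq2 and limma fits were tested on simulated counts. The other steps were not tested in this way.

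Alternatives were DESeq2 1.42.0, upper-quartile factors or library size alone in place of TMM, no filter or a filter of at least 10 counts in every library, offsets for effective length, limma 3.58.1 on log2 of TPM plus 1 or 0.1, the replicate number as a block, and leaving out each library. Named were all 10 genes of the family, STBD1 and, from each other list, up to 4 called genes by absolute log2 fold change. BCL2, BOK, BIK, HRK, BMF, BCL2L15, CYCS, APAF1, CASP9 and genes that overlap members were named in addition, after their values were seen. The genes and lists were chosen with earlier results of these data known. Some items of the lists are not reported here.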

Additional observations from a re-analysis of the deposited data

How the results depend on the processing

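The number of the 10 genes called, 6 with 3 higher and 3 lower, was 3 in DESeq2, 2 with offsets for effective length and 0 in limma on log2(TPM + 1) and on log2(TPM + 0.1). In each limma fit 4 of the 10 had an unadjusted p under 0.05, as did 2617 and 2527 of the 15566 genes. Without a library it ran from 2 to 5, the lowest without shSTBD1 replicate 3, with 3 without shControl replicate 2 or shSTBD1 replicate 1. The number of all genes called, 2453, was 511 with offsets for effective length, 56 and 32 in limma on TPM, and 1409 to 2577 without a library. The number of the 10 genes whose transcript lengths did not overlap was 1 to 4 without a library. Smaller groups separate more easily, and the share over all genes was not counted for them. BCL2L11 turned to -0.48 with offsets for effective length and to -0.40 and -0.41 in limma, the fits that divide by its unstable length. PMAIP1 ran from -0.02 (without shControl replicate 1) to 0.12 without a library, and was also below 0 without shSTBD1 replicate 2 (-0.012). With the replicate number as a block, 6 of the 10 genes and 2579 genes in all were called. Deviations of same-numbered libraries correlated at 0.0705, 0.0676 and -0.00841, so the numbers were not taken to pair the samples. The 3 replicates per group and the small folds limit the calls nearest the threshold, those of BCL2L2, BAX, BAK1 and BBC3.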
